A study of Mus musculus with 12 samples.

Results

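Ahr, the gene of the aryl hydrocarbon receptor (AHR), its dimer partner Arnt, and 3 genes known as targets of the receptor, Tiparp, Cyp1b1, and Nqo1, were chosen by symbol from 2 deposited RNA-seq tables, Th17 compared to Th0 cells and iTreg compared to Th0 cells. All 5 genes were listed in both tables, among 11077 listed genes in the Th17 table and 11056 in the iTreg table. All 5 also passed the filter on low values, along with 10269 and 10208 genes in all. The filter asked for more than 1 FPKM in at least 4 of 8 libraries. FPKM is fragments per kilobase of exon, scaled to the sequencing depth of the library. Cyp1b1 passed the filter through the polarized libraries only, since all of its Th0 values were below 1 FPKM. Ahr also needed the polarized libraries to pass, since its lowest Th0 value was below 1 FPKM (0.799 in the Th17 and 0.790 in the iTreg table).

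The series holds 12 libraries, 4 each of Th0, Th17, and iTreg cells, made from independent cultures. The labels number the experiments from 1 to 4 within every group, so that each number ties a Th0, a Th17, and an iTreg sample. All cultures started from naive CD4+CD62L+ T cells out of the spleens of C57BL/6 mice aged 8 to 10 weeks and were activated for 3 days on plate-bound anti-CD3 and anti-CD28, each at 1 μg/ml. Th0 cells had no polarizing cytokine, Th17 cells also had IL6 (30 ng/ml), TGFβ1 (5 ng/ml), and antibodies against IL4 and IFNγ (10 μg/ml each), and iTreg cells had IL2 (10 ng/ml) and TGFβ1 (10 ng/ml). The dose of TGFβ1 for iTreg cells is that of the sample labels, and the study's methods give a higher dose. No agonist or inhibitor of AHR was added in any group, as far as the labels and methods state. The medium of every culture was IMDM with fetal calf serum, and whether it held ligands of AHR is not stated. Both tables use the same 4 Th0 libraries, so the comparisons share their controls. No test of Th17 against iTreg cells was made, because FPKM had been scaled separately in each table. The same Th0 libraries differed between the tables by a constant factor of 0.988 to 0.991 per library.

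AHR is a transcription factor of the basic helix-loop-helix PAS family that waits in the cytosol, bound to chaperones, until it binds a small ligand such as a tryptophan metabolite or an environmental pollutant. It then enters the nucleus, pairs with ARNT, and binds DNA at sites built around a short core, where it raises the genes of cytochrome P450 enzymes and of its own negative regulators. In T cells AHR is best known for its expression in Th17 cells, where it supports IL22 production, and it has also been linked with regulatory T cells. TIPARP is an ADP-ribosyltransferase that represses AHR in a feedback loop, CYP1B1 is a cytochrome P450 that metabolizes steroids and polycyclic aromatic hydrocarbons, and NQO1 is a quinone reductase whose gene also responds to the oxidative stress factor NRF2.

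The promoters of the partner and of the 3 target genes are shown because AHR and ARNT bind the core GCGTG and NRF2 binds the antioxidant response element, whose core TGACNNNGC was also searched. Each sequence holds the 250 bases before the transcription start of RefSeq on GRCm38.p6, read 5′ to 3′ along the gene, and capitals mark a match to either core on either strand. The windows end at the RefSeq start sites, which differ by some bases from the GENCODE gene starts given with the genes for Arnt, Tiparp, and Nqo1 and are the same for Cyp1b1. The windows are chr3:95434140-95434389 on the plus strand for Arnt, chr3:65528197-65528446 on the plus strand for Tiparp, chr17:79715062-79715311 on the minus strand for Cyp1b1, and chr8:107403206-107403455 on the minus strand for Nqo1.
Arnt: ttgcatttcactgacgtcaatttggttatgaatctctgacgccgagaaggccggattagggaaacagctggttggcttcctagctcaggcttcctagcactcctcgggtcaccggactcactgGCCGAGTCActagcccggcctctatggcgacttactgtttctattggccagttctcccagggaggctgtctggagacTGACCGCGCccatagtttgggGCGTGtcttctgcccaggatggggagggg
Tiparp: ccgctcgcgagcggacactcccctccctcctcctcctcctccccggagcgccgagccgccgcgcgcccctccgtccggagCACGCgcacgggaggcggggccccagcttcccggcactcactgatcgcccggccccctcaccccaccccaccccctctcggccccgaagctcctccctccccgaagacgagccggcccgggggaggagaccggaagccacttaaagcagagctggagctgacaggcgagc
Cyp1b1: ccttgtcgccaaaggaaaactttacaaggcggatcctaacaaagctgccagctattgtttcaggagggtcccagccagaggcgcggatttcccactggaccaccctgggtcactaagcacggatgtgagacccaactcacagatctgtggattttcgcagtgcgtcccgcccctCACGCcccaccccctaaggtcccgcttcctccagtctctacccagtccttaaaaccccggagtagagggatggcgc
Nqo1: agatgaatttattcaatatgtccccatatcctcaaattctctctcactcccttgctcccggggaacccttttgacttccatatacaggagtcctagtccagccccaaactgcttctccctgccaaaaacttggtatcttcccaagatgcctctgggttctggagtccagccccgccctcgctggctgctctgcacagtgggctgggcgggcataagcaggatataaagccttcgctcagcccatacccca

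The Tiparp window held a single match to GCGTG, which lay on the opposite strand at bases -170 to -166 from the start. The Cyp1b1 window likewise held 1 match on the opposite strand, at -76 to -72. The Arnt window held 1 match to GCGTG on its own strand at -29 to -25 and 2 matches to the antioxidant core, at -127 to -119 and -50 to -42. Neither core was found in the Nqo1 window, which says only that these letters are not in these 250 bases. Among all 32851 promoter windows of this length, 28.2% held GCGTG and 10.2% held the antioxidant core, and a match describes the sequence and does not show that a factor binds it. Promoters were found for 4 of the 5 genes, and Ahr is the gene without an entry.

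The markers of the labelled cell types were present, with overlap between the Th17 and iTreg programmes. Of 6 T cell markers, 5 were listed, with a summed level of 719 to 1501 FPKM over all libraries. Cd4 fell in Th17 cells, from 81.3 to 283 FPKM in Th0 to 33.8 to 87.4 FPKM in Th17 libraries (log2 fold change -1.54, SE 0.43, adjusted p = 0.038 from limma), and the other 4 did not pass the test in either comparison. Over all tested genes, 19.3% passed this test in Th17 and 16.6% in iTreg cells. In the fit that pairs libraries by column heading, 2 of the 5 were lower in Th17 cells, and 3 were lower and 1 higher in iTreg cells. In that fit 37.8% of all tested genes passed in Th17 and 40.9% in iTreg cells. Il17f, a cytokine gene of Th17 cells, was at 281 to 788 FPKM in Th17 and 0.0909 to 0.184 FPKM in Th0 libraries, but also at 26.9 to 99.2 FPKM in iTreg libraries. Foxp3, the lineage factor of regulatory T cells, was at 62.0 to 91.7 FPKM in iTreg and 2.01 to 7.15 FPKM in Th0 libraries of the same table. Foxp3 was below 5 FPKM in 3 Th17 libraries and at 42.5 FPKM in the fourth, whose column heading is M43_5, so results are also given without it. Other markers went the other way. Ccr6, a Th17 marker, was at 1.90 to 9.78 FPKM in Th17 and 11.4 to 27.8 FPKM in iTreg libraries (adjusted p = 0.052 and 1.01e-04 against Th0 from limma). Ctla4, an iTreg marker, was at 104 to 148 FPKM in Th17 and 42.6 to 62.65 FPKM in iTreg libraries (adjusted p = 3.45e-04 and 0.17 against Th0 from limma). Among markers of other cells, those of NK cells and stroma were not listed and those of B cells, CD8 T cells, and dendritic cells each did not exceed 6.60 FPKM in sum. Of 6 macrophage and monocyte markers, Cd68 and Itgam were listed in the Th17 table, where their sum was 3.34 to 5.03 FPKM in Th0 and 5.58 to 16.5 FPKM in Th17 libraries (Cd68, adjusted p = 0.055, and 0.0186 in the paired fit), and Cd68 alone was listed in the iTreg table, at 3.19 to 4.85 FPKM in Th0 and 2.61 to 7.19 FPKM in iTreg libraries. The part of these cells in the results below was not tested. In bulk RNA, a larger number of expressing cells and more RNA per cell cannot be told apart.

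Column headings begin with M22, M29, M42, or M43, and each beginning occurs once in every group. What the beginnings mark is not stated, and no heading carries an experiment number. Total read numbers are unknown from FPKM, but the values of low genes lay on whole-number steps, from which the depth of a library relative to the median of its table was 0.843 to 1.08 in the Th17 table and 0.825 to 1.19 in the iTreg table.

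Ahr, Tiparp, and Cyp1b1 were higher in Th17 than in Th0 cells, and Ahr and Cyp1b1 were higher in iTreg than in Th0 cells. Tiparp did not pass the test in iTreg cells, and neither Arnt nor Nqo1 passed it in either comparison. Of the 5 genes, 3 were therefore DE in Th17 cells, where 19.3% of all tested genes were DE, 10.6% higher and 8.69% lower. In iTreg cells 2 of the 5 were DE, where 16.6% of all tested genes were DE, 8.36% higher and 8.21% lower. The filter shaped both counts, since Ahr and Cyp1b1 met it only with the polarized libraries. DE stands for an adjusted p under 0.05 in limma with Benjamini-Hochberg adjustment over all tested genes, and fold changes were taken on log2(FPKM + 1), a scale on which genes with low FPKM appear to change less. When libraries with the same heading beginning were treated as pairs, the same genes of the 5 were DE, while the share of all tested genes rose to 37.8% and 40.9%. Without the Th17 library M43_5 the DE genes among the 5 were again Ahr, Tiparp, and Cyp1b1.

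**Figure D1:**
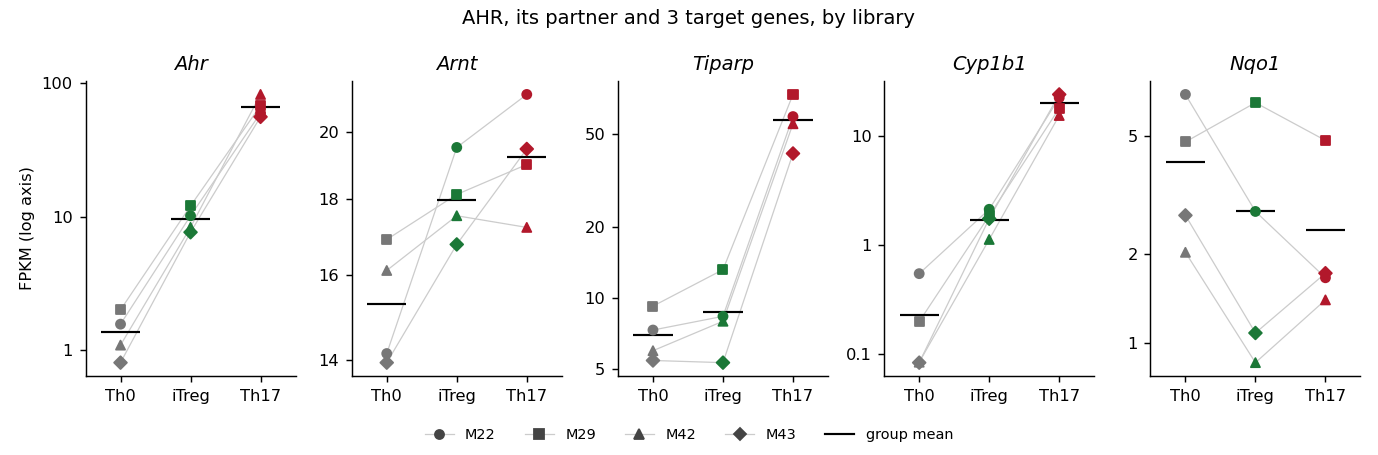
FPKM of the 5 genes in each library (points, log axis), with the mean of each group of 4 libraries (bars) and grey lines that join libraries with the same heading beginning (M22, M29, M42, M43). Th0 and Th17 values are from the Th17 table and iTreg values from the iTreg table. Ahr, Tiparp, and Cyp1b1 lie higher in all 4 Th17 libraries than in any Th0 library, and the Nqo1 values of the groups overlap.

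In Th0 cells, Ahr was at 1.56, 1.99, 1.08, and 0.799 FPKM in the libraries M22, M29, M42, and M43. In Th17 cells it was at 59.9, 68.2, 82.7, and 56.1 FPKM in the same order. The lowest Th17 library was thus far above the highest Th0 library, and 13.2% of all tested genes were higher in Th17 cells without overlap. The means were 1.36 ± 0.526 FPKM in Th0 and 66.7 ± 11.8 FPKM in Th17 cells (SD, n = 4 each), a ratio of 49.1. The log2 fold change was 4.86 (SE 0.19, 95% interval 4.43 to 5.28, adjusted p = 1.71e-06 from limma), and only 6 tested genes had a larger one. Without the Th17 library M43_5 it was 4.93. Within heading beginnings, Th17 over Th0 was 38.5, 34.2, 76.4, and 70.2, the larger ratios being those of M42 and M43, whose Th0 libraries had the lowest level. The FPKM values correspond to at least 64, 86, 55, and 41 fragments on Ahr in the Th0 libraries and at least 2685, 3609, 3983, and 2776 in the Th17 libraries, these being the smallest whole numbers in the same ratio.

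In iTreg cells Ahr was at 10.1, 12.0, 8.30, and 7.63 FPKM, in the order M22, M29, M42, and M43. Every iTreg library lay above every Th0 library of its table, as 11.7% of all tested genes did, and below every Th17 library. The mean was 9.52 ± 1.98 FPKM, compared to 1.34 ± 0.523 FPKM in Th0 cells (SD, n = 4 each), a ratio of 7.09. Its log2 fold change was 2.18 (SE 0.19, 95% interval 1.75 to 2.61, adjusted p = 1.63e-04 from limma), and 96 of the 10208 tested genes had a larger one. Within heading beginnings the ratio was 6.60, 6.09, 7.76, and 9.66. The gene lies at chr12:35497974-35535038 on the minus strand of GRCm38, and overlaps the long noncoding RNA gene Gm48236 of the other strand over 2.06% of its exonic bases, where counting without strand cannot tell their reads apart.

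Arnt differed far less. It was at 14.1, 16.9, 16.1, and 13.9 FPKM in Th0 and at 21.2, 19.0, 17.2, and 19.5 FPKM in Th17 libraries. All 4 Th17 values were above all 4 Th0 values, which held in either direction for 23.8% of all tested genes. The means were 15.3 ± 1.46 and 19.2 ± 1.63 FPKM (SD, n = 4 each), with a log2 fold change of 0.31 (SE 0.11, 95% interval 0.07 to 0.56). The adjusted p was 0.077 in limma, and a two-sided exact permutation test of 4 libraries against 4 gave p = 0.029, the smallest it can give. Without M43_5 the log2 fold change was again 0.31. In iTreg cells Arnt was at 19.5, 18.1, 17.5, and 16.8 FPKM (mean 18.0 ± 1.16, SD, n = 4). These values did not overlap with Th0 cells either, as for 22.8% of all tested genes, but the highest Th0 library, M29, came within 1% of the lowest iTreg library, M43, and the log2 fold change was 0.24 (SE 0.099, adjusted p = 0.14 from limma). The intervals therefore place Arnt between near no change and a rise of 0.56 in Th17 cells or 0.46 in iTreg cells on the log2 scale. Arnt lies at chr3:95434388-95497240 on the plus strand and shares no exonic base with another gene.

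Tiparp, the feedback repressor, was at 7.33, 9.26, 5.99, and 5.44 FPKM in Th0 and at 59.1, 73.5, 55.1, and 41.2 FPKM in Th17 libraries. No Th17 library was close to the Th0 range. The means were 7.0 ± 1.70 and 57.2 ± 13.3 FPKM (SD, n = 4 each), a ratio of 8.17, and Tiparp had a log2 fold change of 2.86 (SE 0.20, 95% interval 2.40 to 3.32, adjusted p = 4.15e-05 from limma). Without the Th17 library M43_5 it was 3.0. The ratio was similar for all heading beginnings, at 8.07, 7.94, 9.21, and 7.58, and the library with the most Tiparp was M29 in each of the 3 groups.

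In iTreg cells Tiparp was at 8.38, 13.2, 7.98, and 5.33 FPKM. These values overlapped with the Th0 libraries, and M43 was the lowest in both groups. The mean was 8.73 ± 3.29 FPKM, compared to 6.93 ± 1.69 FPKM in Th0 cells (SD, n = 4 each). Its log2 fold change was 0.26 (SE 0.25, 95% interval -0.30 to 0.82, adjusted p = 0.54 from limma), and without the iTreg library M29_4 it was 0.06. Within heading beginnings iTreg over Th0 was 1.16, 1.44, 1.35, and 0.991. The upper bound in iTreg cells lay below the lower bound of 2.40 in Th17 cells, although the difference between them was not tested. Tiparp lies at chr3:65528410-65555518 on the plus strand, and overlaps the pseudogene 4931440P22Rik of the other strand over 5.12% of its exonic bases.

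Cyp1b1 was below 1 FPKM in Th0 cells and rose with both polarizations. In the Th0 libraries it was at 0.547, 0.199, 0.0843, and 0.0835 FPKM, which corresponds to at least 21, 8, 4, and 4 fragments. In the Th17 libraries it was at 22.4, 17.9, 15.4, and 24.0 FPKM, or at least 937, 885, 692, and 1109 fragments. The groups did not overlap, and the Th0 library M22 had more Cyp1b1 than the other Th0 libraries. The means were 0.228 ± 0.219 and 19.9 ± 3.98 FPKM (SD, n = 4 each), a ratio of 87.3. The log2 fold change was 4.09 (SE 0.17, 95% interval 3.69 to 4.48, adjusted p = 2.28e-06 from limma), and 3.99 without the Th17 library M43_5. With a pseudocount of 0.1 FPKM in place of 1 FPKM the log2 fold change was 6.12.

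In iTreg cells Cyp1b1 was at 2.13, 1.86, 1.12, and 1.74 FPKM, on at least 119, 94, 52, and 80 fragments. All 4 iTreg libraries were above the Th0 libraries and below the Th17 libraries. The mean was 1.71 ± 0.423 FPKM, compared to 0.226 ± 0.216 FPKM in Th0 cells (SD, n = 4 each), a ratio of 7.58. Its log2 fold change was 1.15 (SE 0.16, 95% interval 0.79 to 1.51, adjusted p = 0.0018 from limma), and 2.65 with a pseudocount of 0.1 FPKM. The ratio within heading beginnings was 3.93, 9.42, 13.5, and 21.1, lowest for M22, whose Th0 library had the most Cyp1b1. The gene lies at chr17:79701537-79715061 on the minus strand and shares no exonic base with another gene.

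Nqo1 was the member with a mean below that of Th0 cells in both comparisons, without passing the test. It was at 6.88, 4.76, 2.02, and 2.69 FPKM in Th0 and at 1.66, 4.82, 1.40, and 1.72 FPKM in Th17 libraries. The groups overlapped, since the Th17 library M29 was higher than 3 of the 4 Th0 libraries. The means were 4.09 ± 2.20 and 2.40 ± 1.62 FPKM (SD, n = 4 each), and the log2 fold change was -0.58 (SE 0.36, 95% interval -1.41 to 0.24, adjusted p = 0.31 from limma). Without the Th17 library M29_5 it was -0.87, with an adjusted p of 0.11 in limma, and without M43_5 it was -0.51. Nqo1 lies at chr8:107388225-107403206 on the minus strand and shares no exonic base with another gene.

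In iTreg cells Nqo1 was at 2.77, 6.46, 0.858, and 1.08 FPKM. M29 was again far above the other 3 libraries, and the groups overlapped. The mean was 2.79 ± 2.59 FPKM, compared to 4.04 ± 2.17 FPKM in Th0 cells (SD, n = 4 each). This was a log2 fold change of -0.54 (SE 0.47, 95% interval -1.61 to 0.52, adjusted p = 0.50 from limma). Without the iTreg library M29_4 it was -0.94, with an adjusted p of 0.15. Within heading beginnings Nqo1 was lower than in Th0 cells for M22, M42, and M43, at 0.408, 0.430, and 0.406 of the Th0 level, and higher for M29, at 1.37. The values of Nqo1 rest on 12 to 99 fragments per library at least, and the interval allows both a fall of 1.61 and a rise of 0.52 on the log2 scale.

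**Figure D2:**
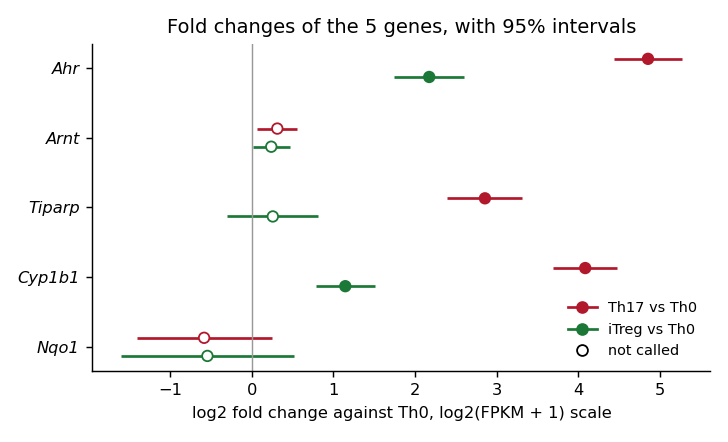
Log2 fold changes of the 5 genes against Th0 cells with 95% intervals from limma (points and lines, n = 4 libraries per group), Th17 in red and iTreg in green. Filled points have an adjusted p under 0.05. In Th17 cells the points of Ahr (4.86), Cyp1b1 (4.09), and Tiparp (2.86) lie far from 0, in iTreg cells those of Ahr (2.18) and Cyp1b1 (1.15), and the intervals of Nqo1 span 0 in both.

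Because FPKM is scaled by gene length, the levels of the 5 genes could also be ranked within each group. In Th0 cells the order of the means was Arnt, Tiparp, Nqo1, Ahr, and Cyp1b1, and the ranges of the neighbours Tiparp and Nqo1 overlapped. In Th17 cells the order was Ahr, Tiparp, Cyp1b1, Arnt, and Nqo1, where the ranges of Ahr and Tiparp overlapped, as did those of Cyp1b1 and Arnt. In iTreg cells it was Arnt, Ahr, Tiparp, Nqo1, and Cyp1b1, with overlap between Ahr and Tiparp, between Tiparp and Nqo1, and between Nqo1 and Cyp1b1. Ahr was thus lower than its partner in all 4 Th0 and all 4 iTreg libraries and higher than it in all 4 Th17 libraries.

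Tiparp and Cyp1b1 went with Ahr over the 8 libraries of the Th17 table, with Pearson correlations of log2(FPKM + 1) of 0.990 and 0.987. Arnt had 0.823 and Nqo1 -0.445. The tested gene most like Ahr was Stat3 (0.998), the transcription factor downstream of IL6, followed by Abi3 (0.995), Il21 (0.995), Art2a-ps (0.994), and Il17f (0.994). Over the 8 libraries of the iTreg table, Ahr had a correlation of 0.956 with Cyp1b1, 0.845 with Arnt, 0.537 with Tiparp, and -0.184 with Nqo1, and the most similar genes were Gpkow (0.995), Maff (0.993), Med25 (0.992), Tlr1 (0.991), and Cstb (0.990). The gene most like Cyp1b1 was Fnbp1l in both tables, at 0.996 and 0.990. These correlations describe the libraries, since they mix the difference between groups with the spread within them, and all libraries of a table were scaled together.

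Other genes known as AHR targets were listed for 5 of 13 list members, and the others were not analysed here. In Th17 cells 10.6% of all tested genes were DE and higher. Of the 4 genes of this list tested there, 3 were DE and higher and 1 did not pass (median log2 fold change 1.06, compared to -0.00071 over all tested genes). The filter shaped this count, since Ahrr, below 1 FPKM in all Th0 libraries, passed it through the Th17 libraries only, and Scin, which was lower in all Th17 libraries, did not pass it. In iTreg cells 1 of 5 was DE and higher, compared to 8.36% of all tested genes (median 0.55, compared to 0.011 over all tested genes). The DE gene was Ahrr, and the median is its own value. There it passed the filter through the iTreg libraries only, so that it could count only as higher. When libraries with the same heading beginning were paired, 3 of 5 were DE and higher, where 40.9% of all tested genes were DE. RefSeq promoters were found for 10 of the 13 list members, and in the same window as above 5 of them held GCGTG, namely Ahrr with 3 matches and Cyp1a1, Scin, Gsta2, and Lpcat2, and only Nfe2l2 held the antioxidant core. Cyp1a1, the classic AHR-responsive cytochrome P450, was at 27.5, 10.0, 3.96, and 6.72 FPKM in Th0 and at 75.2, 122, 23.5, and 53.3 FPKM in Th17 libraries. The groups overlapped, as the Th17 library M42 was below the Th0 library M22, but each Th17 library was above the Th0 library with the same beginning. The log2 fold change was 2.50 (SE 0.60, adjusted p = 0.0203 from limma), and the adjusted p was 0.060 without the Th0 library M43_1, 0.061 without M22_5, and 0.053 without M29_5.

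In iTreg cells Cyp1a1 was at 28.7, 41.4, 8.84, and 11.4 FPKM, with a log2 fold change of 0.93 (SE 0.61, adjusted p = 0.36 from limma). It was higher than in Th0 cells for all 4 heading beginnings, and the paired fit gave an adjusted p of 0.0319. Ahrr, which encodes a repressor that competes with AHR for ARNT, was at 0.649, 0.969, 0.274, and 0.362 FPKM in Th0 and at 3.60, 4.50, 2.53, and 2.93 FPKM in Th17 libraries. The Th17 libraries were all above the Th0 libraries, with a log2 fold change of 1.49 (SE 0.18, adjusted p = 6.41e-04 from limma). In iTreg cells Ahrr was at 1.47, 1.37, 1.13, and 1.06 FPKM, again with no overlap. The log2 fold change of 0.55 (SE 0.15, adjusted p = 0.035 from limma) did not pass the test in 7 of 8 fits without 1 library, in which the adjusted p was 0.056 to 0.097, and passed without M29_1.

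Nfe2l2, the gene of NRF2, was at 19.5, 26.3, 16.9, and 15.5 FPKM in Th0 and at 30.1, 33.5, 26.1, and 31.1 FPKM in Th17 libraries. The ranges overlapped slightly, and the log2 fold change was 0.63 (SE 0.16, adjusted p = 0.0294 from limma). It did not pass without M22_1, M42_1, M43_1, M22_5, M29_5, or M43_5 (adjusted p 0.068 to 0.081). In iTreg cells it was at 15.1 to 24.2 FPKM, compared to 15.3 to 26.0 FPKM in Th0 cells (log2 fold change -0.01, SE 0.19, adjusted p = 0.98 from limma). Scin, which encodes an actin-severing protein, did not pass the filter in the Th17 table and was not tested there. It was at 0.637 to 10.1 FPKM in the 4 Th0 libraries, and was listed at 0 in 2 Th17 libraries and at 0.0346 and 0.0381 FPKM in the others. In iTreg cells Scin was at 0.878 to 5.15 FPKM (adjusted p = 0.91 from limma). Slc7a5, a subunit of the transporter that imports tryptophan and kynurenine, had log2 fold changes of 0.26 in Th17 (SE 0.34, adjusted p = 0.65) and 0.70 in iTreg cells (SE 0.34, adjusted p = 0.20, limma). In iTreg cells it passed in the paired fit (adjusted p = 0.0023) and without M42_4 (adjusted p = 0.040).

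**Figure D3:**
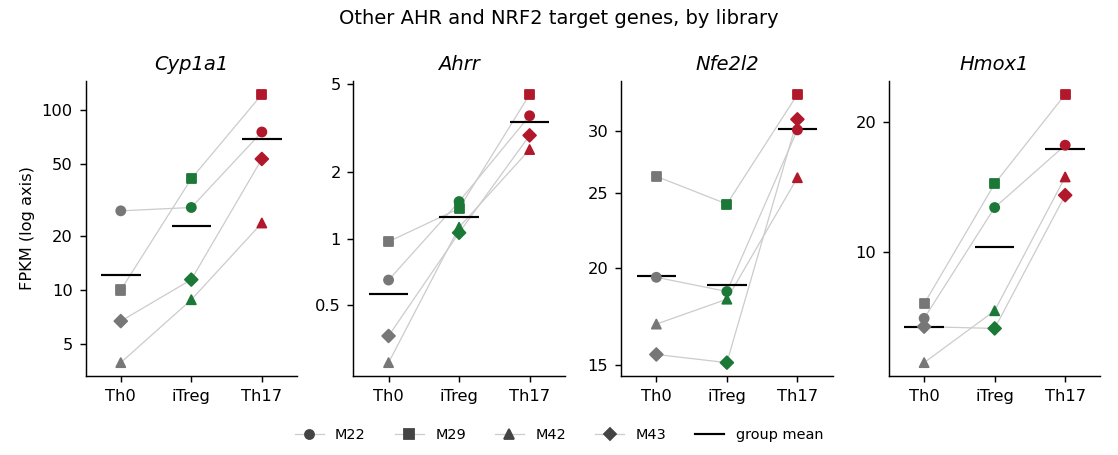
FPKM of Cyp1a1, Ahrr, Nfe2l2, and Hmox1 in each library (points, log axis), with group means of 4 libraries (bars) and grey lines between libraries with the same heading beginning. Th0 and Th17 values are from the Th17 table and iTreg values from the iTreg table. Every Th17 library lies above the Th0 library with the same beginning for all 4 genes. The 4 genes are a selection from their lists. In Th17 cells Scin was lower for all 4 beginnings, and Slc7a5 was higher for 3 and lower for 1. The iTreg values of Nfe2l2, 15.1 to 24.2 FPKM, lie close to the Th0 values of 15.5 to 26.3 FPKM.

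Genes that AHR is known to regulate or to work with in T cells were listed for 10 of 11 list members in the Th17 table. Il22 had no entry in either table used and was not analysed here. Of the 9 tested, 8 were DE and higher in Th17 cells and 1 was DE and lower (median log2 fold change 3.54), compared to 10.6% and 8.69% of all tested genes. Il21, Il1r1, and Gpr15 were below 1 FPKM in all Th0 libraries and passed the filter through the Th17 libraries only, so that they could enter these counts only as higher. Among Th0 libraries, Il10 and Itgae exceeded 1 FPKM in M29_1 alone (3.71 and 1.003 FPKM), so they too passed because of the Th17 libraries. Several genes of the list are also known as genes of Th17 polarization itself, apart from AHR. The largest rises were those of Il21, a cytokine of Th17 and follicular helper T cells, from 0.0401 to 0.136 FPKM in Th0 to 65.9 to 94.1 FPKM in Th17 libraries (log2 fold change 6.07, SE 0.13, adjusted p = 8.2e-08 from limma), and of Maf, a transcription factor that drives Il10, from 1.68 to 13.2 to a range of 213 to 266 FPKM (5.46, SE 0.43, adjusted p = 7.04e-05). Il10 itself had a log2 fold change of 3.90 and Il1r1, a receptor for IL1, of 3.67. Gpr15, a homing receptor for the colon, was listed at 0 in 2 Th0 libraries and at 0.395 FPKM at most in the others, and was at 5.23 to 16.0 FPKM in Th17 libraries (3.54, SE 0.32, adjusted p = 1.3e-04). Il2 was the gene that fell, from 19.0 to 56.3 FPKM in Th0 to 3.37 to 5.82 FPKM in Th17 libraries (-2.88, SE 0.31, adjusted p = 2.99e-04).

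In iTreg cells 7 of these genes were listed and 6 tested, of which 4 were DE and higher and 1 DE and lower (median log2 fold change 1.30), compared to 8.36% and 8.21% of all tested genes. Gpr15 and Itgae passed the filter there through the iTreg libraries only. Maf was at 77.3 to 117 FPKM (4.18, SE 0.44, adjusted p = 4.12e-04 from limma) and Itgae, an integrin of tissue-resident T cells, at 2.62 to 16.2 FPKM (2.57, SE 0.46, adjusted p = 0.0060). Gpr15 was at 1.56 to 3.01 FPKM (1.55, SE 0.17, adjusted p = 5.18e-04). Il2 was at 1.26 to 3.54 FPKM (-3.47, SE 0.35, adjusted p = 3.53e-04). Ikzf3, the gene of the transcription factor Aiolos, was DE in Th17 cells (3.09, adjusted p = 3.96e-04), whereas its log2 fold change of 1.05 in iTreg cells did not pass (adjusted p = 0.077, and 0.0011 in the paired fit or 0.010 without M29_1). The difference between Th17 and iTreg cells was not tested for any of these genes.

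AHR belongs to the PAS family, in which HIF1A and AHRR also pair with ARNT, whereas the clock proteins CLOCK and NPAS2 pair with ARNTL. Of 10 genes of the family 7 were listed and 5 tested, namely Ahrr, Hif1a, and the clock genes Arntl, Clock, and Npas2, of which 4 were DE and higher in Th17 cells (median 0.87), and 5 in the paired fit. Over all tested genes 10.6% were DE and higher, and 37.8% were DE in the paired fit. Ahrr passed the filter in both tables through the polarized libraries only. In iTreg cells 2 of the 5 were DE and higher and 1 was DE and lower (median 0.44), and the paired fit added Arntl as higher (adjusted p = 0.0138). There, 8.36% of all tested genes were DE and higher and 8.21% DE and lower, and 40.9% were DE in the paired fit. Hif1a, the hypoxia factor that also pairs with ARNT, was at 89.2 to 136 FPKM in Th0 and at 159 to 267 FPKM in Th17 libraries (0.90, SE 0.19, adjusted p = 0.0113 from limma). In iTreg cells it was at 67.6 to 84.4 FPKM, below all Th0 libraries (-0.55, SE 0.14, adjusted p = 0.0302), and this fall did not pass without M29_1, M42_1, M43_1, M22_4, M29_4, or M42_4 (adjusted p 0.052 to 0.086). The clock gene Npas2 was at 8.40 to 9.87 FPKM in iTreg and 1.81 to 3.32 FPKM in Th0 libraries (1.57, SE 0.14, adjusted p = 1.89e-04). Hif1a was above Ahr in FPKM in every library of each group.

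The complex that holds AHR in the cytosol had all 6 genes listed and tested, and the median log2 fold change was -0.00033 in Th17 and 0.035 in iTreg cells. Only Src, a tyrosine kinase, was DE, and it was higher in both, where 19.3% and 16.6% of all tested genes were DE. Src was below 1 FPKM in all Th0 libraries and passed the filter through the polarized libraries only. It was at 0.195 to 0.459 FPKM in Th0 and 1.07 to 4.84 FPKM in Th17 libraries (1.53, SE 0.30, adjusted p = 0.0082 from limma), and at 4.87 to 8.98 FPKM in iTreg libraries (2.56, SE 0.17, adjusted p = 3.6e-05). In the paired fit 2 of the 6 genes were DE in iTreg cells, compared to 40.9% of all tested genes, the other being Cdc37, a cochaperone of HSP90.

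Nqo1 is a target of both AHR and NRF2, so the NRF2 programme was examined in the same way. Of 18 genes 15 were tested in the Th17 table, where 4 were DE and higher and 11 did not pass (median 0.041), compared to 10.6% of all tested genes higher. In the paired fit 5 were DE and higher, where 37.8% of all tested genes were DE. Hmox1, which encodes heme oxygenase 1, was at 7.03, 7.60, 5.56, and 6.73 FPKM in Th0 and at 17.7, 23.1, 14.9, and 13.5 FPKM in Th17 libraries (1.22, SE 0.17, adjusted p = 0.00125 from limma). Gstm1, a glutathione transferase from a family of similar genes, was at 1.09 to 2.06 and 2.94 to 13.0 FPKM (1.51, SE 0.34, adjusted p = 0.0154). Mafg, a small MAF partner of NRF2, had a log2 fold change of 0.98 (SE 0.27, adjusted p = 0.0363), which did not pass without M22_1, M42_1, M43_1, M22_5, or M29_5 (adjusted p 0.062 to 0.10).

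In iTreg cells 16 genes of the NRF2 programme were tested, of which 1 was DE and lower and 15 did not pass (median -0.0082), compared to 8.21% of all tested genes lower. The paired fit gave 5 DE and higher and 3 DE and lower, where 40.9% of all tested genes were DE. Gstm1, which passed the filter through the Th0 libraries only, was the gene that fell, to 0.212 to 0.943 FPKM (-0.66, SE 0.17, adjusted p = 0.032 from limma), which did not pass without M22_1, M43_1, M22_4, M29_4, or M43_4 (adjusted p 0.063 to 0.081). Hmox1 was at 12.7, 14.4, 7.32, and 6.66 FPKM (0.50, SE 0.23, adjusted p = 0.19, and 0.0333 in the paired fit).

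**Figure D4:**
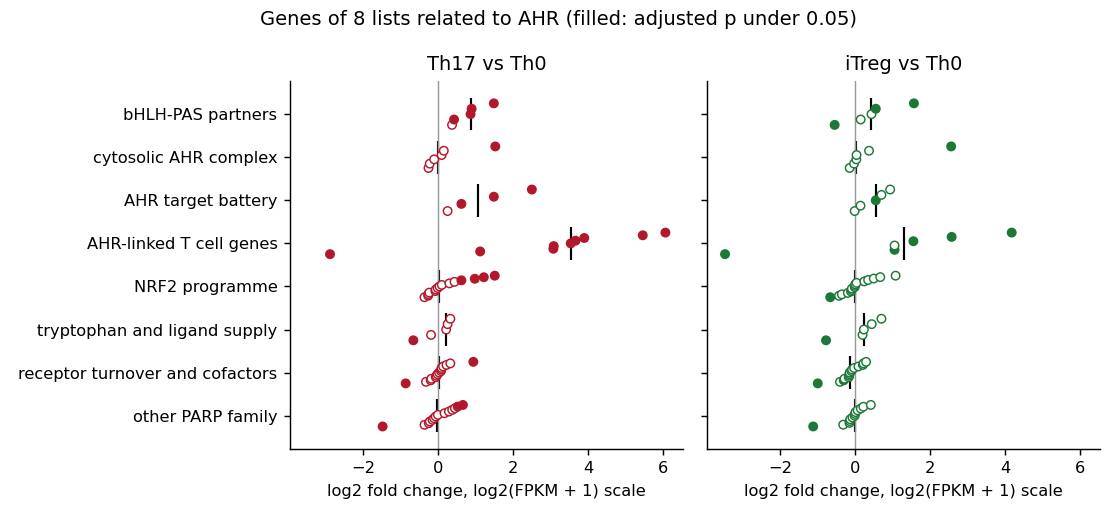
Log2 fold changes of the tested genes of 8 lists related to AHR (points), Th17 compared to Th0 on the left and iTreg compared to Th0 on the right, with the median of each list (black bars) and filled points for an adjusted p under 0.05. The AHR-linked T cell genes have the widest spread, with medians of 3.54 and 1.30, whereas the cytosolic complex and the NRF2 programme have medians near 0 in both comparisons.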

How the data were processed

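RNA of 4 Th0, 4 Th17, and 4 iTreg cultures was sequenced as paired ends. The authors mapped reads with TopHat (version 2.0.14) to mm10, counted them on exons with HTSeq-count in union mode without strand, removed genes without more than 1 CPM in at least 4 samples, and compared counts pair-wise in edgeR. Their gene annotation is not given in the sources used. They deposited 2 tables with FPKM per library, scaled by the authors for each table, along with their own log2 fold changes, log2 average CPM, likelihood ratios, p-values, and FDR, which were not used.

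Groups follow the column endings and the labels, which give the cultures as independent. Genes above 1 FPKM in at least 4 of 8 libraries entered an unpaired limma fit (version 3.58.1, R 4.3.3) of log2(FPKM + 1), with Benjamini-Hochberg adjustment at 0.05. Permutations used Python 3.11.15 and scipy 1.17.1. The labels number experiments across groups, but column headings carry no such number, so the main fit was unpaired. Libraries with the same heading beginning deviated together from their group means (correlations 0.450 to 0.784 in the Th17 table and 0.662 to 0.769 in the iTreg table), so a paired fit on the beginnings was run as an alternative. On simulated data with 200 changed genes, 80% of those changed 2-fold and 94% of those changed 4-fold were recovered for Th17 (10269 genes, 3.33% false calls), and 73% and 95% for iTreg (10208 genes, 6.15% false calls). The changed genes were drawn only from genes well expressed in Th0 cells. Ahr, Tiparp, Cyp1b1, and Nqo1 lay below that level, so the recovery does not describe them. The simulated libraries were also drawn independently, without shared heading beginnings. Fragment numbers are the smallest whole numbers that the FPKM ratios of a gene allow, with a tolerance of 0.02.

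The 5 genes and all lists were chosen with earlier results of these data known. From each list, the 2 DE genes with the largest rise and the 2 with the largest fall were named in each comparison, and any gene whose role a sentence turns on. Other named genes were chosen after their values were seen. Single values of some list genes are not reported here. For each of the 5 genes, the 5 genes with the highest correlation were taken, and those of Ahr are given. Coordinates and overlaps are from GENCODE vM21 on GRCm38, promoters from RefSeq.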

Additional observations from a re-analysis of the deposited data

Results flagged for a closer look

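Among 108 groups of 4 libraries examined, 9 had a highest or lowest library that stood apart from the other 3. These groups came from 33 genes and are not all separate, since the same Th0 libraries stand in both tables. The rate of about 1 in 20 groups that chance gives for separate groups is therefore only a rough guide. Of the 5 genes, only Nqo1 had such a library, M29_5, the highest Th17 library at 4.82 FPKM. Libraries with the beginning M29 were also the highest for Arntl in Th0 (17.0 FPKM), Il10 in Th0 (3.71 FPKM), and Il2 in Th17 cells (5.82 FPKM), and the lowest for Gpr15 in Th17 (5.23 FPKM), Il21 in Th0 (0.0401 FPKM), and Scin in iTreg cells (0.878 FPKM). Il21 in Th17 cells was highest in M42_5 (94.1 FPKM), and Parp16 in Th17 cells was highest in M22_5 (2.57 FPKM).

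Of the named genes, 2 moved in opposite directions in the comparisons with no overlap in either. Hif1a had a log2 fold change of 0.90 in Th17 and -0.55 in iTreg cells, and Gstm1 of 1.51 and -0.66. Among all tested genes, 23.8% did not overlap in the Th17 and 22.8% in the iTreg comparison, and both share their Th0 libraries. The share of all genes with such opposite moves was not calculated. The falls in iTreg cells did not pass in 6 of 8 fits without 1 library for Hif1a and in 5 of 8 for Gstm1. Gstm1 passed the filter there through the Th0 libraries only. The difference was not tested.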

How the results depend on the processing

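Each result was recomputed under 7 other settings and without each library in turn. For the 5 genes, Ahr, Tiparp, and Cyp1b1 in Th17 cells and Ahr in iTreg cells stayed DE in the same direction in all fits made, and Arnt, Nqo1, and, in iTreg cells, Tiparp passed the test in none. Cyp1b1 in iTreg cells stayed DE wherever it was tested. With a filter of 5 FPKM it was not tested, and 1 of the 5 genes was then DE in iTreg cells. The number of DE genes was 995 in Th17 and 778 in iTreg cells at an FDR of 0.01. With the replicate block, the fit that pairs libraries by heading beginning, it was 3882 and 4170, and Arnt came closer to the threshold, with adjusted p = 0.056 in Th17 and 0.053 in iTreg cells (limma). Leaving out 1 library gave 1364 to 2237 DE genes in Th17 and 1140 to 1521 in iTreg cells. Without 1 library, the log2 fold change in iTreg cells was -0.13 to 0.14 for Nfe2l2 and -0.29 to 0.62 for Scin, each changing sign in 3 of 8 fits without ever passing the test. Markers of other cells were also counted above 1 FPKM. At most 1 of 6 macrophage markers exceeded it in any library, Th0 libraries included.

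FPKM does not give the total number of reads, so no counting intervals were calculated. The Cyp1b1 levels in Th0 cells rest on as few as 4 fragments, and their fold changes depend on the pseudocount.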

Other observations

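TIPARP belongs to the PARP family, and of 15 other genes of the family 14 were tested in Th17 and 13 in iTreg cells. In Th17 cells 2 were DE and higher and 1 was DE and lower (median log2 fold change -0.031), and in iTreg cells 1 was DE and lower (median -0.012). When libraries were paired by heading beginning, 4 were DE and higher and 2 DE and lower in Th17 cells, and 2 were DE and lower in iTreg cells. Over all tested genes, 19.3% were DE in Th17 and 16.6% in iTreg cells, or 37.8% and 40.9% in the paired fit. Parp8 was at 13.1 to 17.1 FPKM in Th0, 3.36 to 6.23 FPKM in Th17, and 5.50 to 6.91 FPKM in iTreg libraries, with log2 fold changes of -1.47 (SE 0.17, adjusted p = 4.66e-04 from limma) and -1.12 (SE 0.11, adjusted p = 2.79e-04). Parp9 was at 7.0 to 9.98 FPKM in Th0 and 12.2 to 17.3 FPKM in Th17 libraries (0.67, SE 0.14, adjusted p = 0.0128). Parp16 had a log2 fold change of 0.53 in Th17 cells (adjusted p = 0.0499), which did not pass in 7 of 8 fits without 1 library (adjusted p 0.051 to 0.13) and passed without M29_1.

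Of 16 genes for turnover and cofactors of AHR, 15 were tested. In Th17 cells 1 was DE and higher and 1 DE and lower, or 2 each in the paired fit, and in iTreg cells 2 were DE and lower, or 2 higher and 4 lower in the paired fit. These counts were no larger a share of the list than the DE genes were of all tested genes, with 19.3% and 16.6%, or 37.8% and 40.9% in the paired fit. Ncoa1, a coactivator, was at 6.87 to 8.03 FPKM in Th0 and 13.7 to 17.5 FPKM in Th17 libraries (0.94, SE 0.11, adjusted p = 5.17e-04 from limma). Nrip1, a corepressor, was at 14.3 to 15.6 FPKM in Th0 and 6.27 to 8.85 FPKM in Th17 libraries (-0.86, adjusted p = 0.0011), and had a log2 fold change of -1.0 in iTreg cells (adjusted p = 5.94e-04). Rela fell in iTreg cells by 0.30 on the log2 scale (adjusted p = 0.042), and passed in none of the 8 fits without 1 library (adjusted p 0.050 to 0.12). The list medians were 0.033 and -0.15.

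Of 13 genes of tryptophan metabolism and ligand supply, 5 were listed and tested, of which 1 was DE and lower in each comparison, joined by 2 DE and higher in iTreg cells in the paired fit. Over all tested genes, 19.3% were DE in Th17 and 16.6% in iTreg cells, or 37.8% and 40.9% in the paired fit. Afmid, which makes kynurenine from formylkynurenine, was at 5.83 to 9.22 FPKM in Th0 and 3.08 to 5.41 FPKM in Th17 libraries (-0.66, SE 0.18, adjusted p = 0.0373 from limma), and did not pass without M22_1, M29_1, M29_5, M42_5, or M43_5 (adjusted p 0.062 to 0.098). In iTreg cells it was at 2.87 to 4.56 FPKM (-0.78, SE 0.17, adjusted p = 0.0162). The list medians were 0.22 and 0.23. The clock genes Arntl and Clock, which belong to the PAS family, had log2 fold changes of 0.87 (adjusted p = 0.024) and 0.43 (adjusted p = 0.0463) in Th17 cells. Arntl did not pass without M22_1, M42_1, M43_1, M22_5, or M29_5 (adjusted p 0.063 to 0.072), and Clock passed only without M29_1 among the fits without 1 library (adjusted p 0.062 to 0.12 in the others).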
